A study of Arabidopsis thaliana with 6 samples.

Results

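The glycerol-3-phosphate acyltransferase (GPAT) family of Arabidopsis thaliana was described in leaves of wild type and of the pub2pub4 double mutant. The members were the 9 rows of the deposited table whose gene codes are those of GPAT1 to GPAT9, out of 33602 genes in all. The family was picked because GPAT2 was already known to be higher in pub2pub4 in this same comparison, so the mutant-to-wild-type values of the members are a description and carry no test. The leaves came from plants 25 days old, in 2 groups of 3 libraries each, wild type and pub2pub4, and both groups carry the label mock. The sources used here do not say what the mock treatment was, which mutant alleles and accession were used or how many plants made up a library. The spread between libraries may therefore be technical.

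GPAT enzymes transfer an acyl chain to glycerol-3-phosphate, the first committed step on the way to membrane lipids, storage oil and the extracellular polyesters cutin and suberin. Cutin covers the leaf epidermis, and suberin seals root endodermis, seed coats and wounds. GPAT1 to GPAT8 form a class found in land plants, whose characterised members acylate the sn-2 position. GPAT9, in the endoplasmic reticulum, instead resembles animal enzymes and acylates the sn-1 position for membrane lipid and oil synthesis. GPAT4, GPAT6 and GPAT8 also remove the phosphate and serve cutin assembly. GPAT5 and GPAT7 are associated with suberin and wound-induced polyester, and GPAT1 is needed for tapetum and pollen development. GPAT2 and GPAT3 are annotated as putative enzymes of the same class. PUB2 and PUB4, the genes mutated here, encode U-box proteins, a class of E3 ubiquitin ligases.

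The coding sequences fell into close pairs, and these sequences are shown because they determine whether reads of one member can be told from those of another. In an alignment of the RefSeq coding sequences (TAIR10.1) GPAT4 and GPAT8 were identical at 83% of 1503 aligned bases, GPAT5 and GPAT7 at 78.2% of 1503, and GPAT2 and GPAT3 at 76.7% of 1556. GPAT6 was 63.2% identical to GPAT4 and 62.6% to GPAT8. GPAT9 shared 38.3% to 39.9% of aligned bases with the others. Stretches of 60 bases were compared over GPAT1 to GPAT8 where none had a gap and the stretch began in the GPAT2 reading frame. The most alike of these lay at coding bases 1204 to 1263 of GPAT2, with a mean identity of 73.8% between pairs. The 30 bases identical in all 8 genes are in capitals.
GPAT2: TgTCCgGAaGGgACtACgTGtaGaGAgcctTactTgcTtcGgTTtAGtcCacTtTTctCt
GPAT3: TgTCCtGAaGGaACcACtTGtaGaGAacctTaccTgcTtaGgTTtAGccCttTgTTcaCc
GPAT1: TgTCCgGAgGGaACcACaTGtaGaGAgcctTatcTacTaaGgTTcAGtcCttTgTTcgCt
GPAT4: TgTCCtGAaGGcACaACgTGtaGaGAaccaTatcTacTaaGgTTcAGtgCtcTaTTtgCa
GPAT8: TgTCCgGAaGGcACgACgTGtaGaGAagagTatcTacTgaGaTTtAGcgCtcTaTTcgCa
GPAT6: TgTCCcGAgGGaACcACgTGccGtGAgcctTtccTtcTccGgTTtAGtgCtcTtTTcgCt
GPAT5: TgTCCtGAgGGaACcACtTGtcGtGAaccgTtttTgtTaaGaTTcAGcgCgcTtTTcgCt
GPAT7: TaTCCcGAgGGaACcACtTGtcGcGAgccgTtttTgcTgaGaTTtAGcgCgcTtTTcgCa
The coding positions were 1273 to 1332 in GPAT3, 1393 to 1452 in GPAT1, 1117 to 1176 in GPAT4 and 1114 to 1173 in GPAT8. In GPAT6, GPAT5 and GPAT7 they were 1123 to 1182, 1084 to 1143 and 1078 to 1137. Within this stretch GPAT3 matched GPAT2 at 47 of 60 bases, and GPAT5 matched it at 40.

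In the closest pair, GPAT4 and GPAT8, the longest identical run shared by the transcripts was 35 bases. That of GPAT2 and GPAT3 was 23 bases. Of all 50-base windows in the GPAT2 transcript, 100% occurred in no other annotated transcript, and the same held for GPAT1, GPAT3, GPAT4, GPAT5 and GPAT7. The share was 99.95% for GPAT6, 99.69% for GPAT8 and 93.18% for GPAT9. The GPAT9 windows were shared with AT5G60630, a gene on the opposite strand that overlaps its end by 141 bases. AT5G60630 had 4 to 12 expected counts per library, against 808.81 to 923 for GPAT9. The strand setting of the counting is not stated, so reads in that overlap cannot be assigned with certainty. Windows were compared as exact matches, and reads were not realigned.

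**Figure D1:**
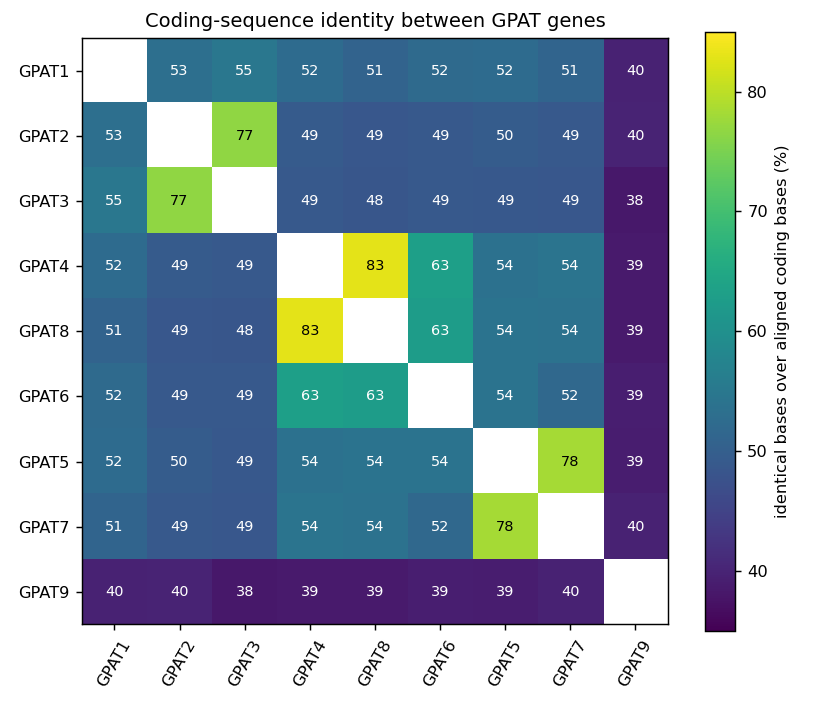
Heat map of identical bases as a percentage of aligned coding bases for every pair of GPAT genes, with genes on both axes and the value printed in each cell. GPAT4 with GPAT8, GPAT5 with GPAT7 and GPAT2 with GPAT3 are the 3 brightest pairs (83%, 78.2% and 76.7%), and the row of GPAT9 is the darkest.

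The gene structures differed in exon number. GPAT1, GPAT2, GPAT3, GPAT5, GPAT6 and GPAT7 each have 2 exons in TAIR10.1, GPAT4 and GPAT8 have 4, and GPAT9 has 12. GPAT2 (AT1G02390) lies on chromosome 1 from 480650 to 483373 on the plus strand, with 1593 coding bases. GPAT3 (AT4G01950) lies on chromosome 4 from 844342 to 846814 on the minus strand, with 1647 coding bases. GPAT1 (AT1G06520) spans 1993903 to 1996355 and GPAT4 (AT1G01610) spans 221642 to 224351, both on the minus strand of chromosome 1. GPAT8 (AT4G00400) spans 173953 to 176870 on the minus strand of chromosome 4, and GPAT6 (AT2G38110) spans 15952496 to 15955752 on the minus strand of chromosome 2. GPAT5 (AT3G11430) is on chromosome 3 from 3595694 to 3597952, GPAT7 (AT5G06090) on chromosome 5 from 1835047 to 1837037 and GPAT9 (AT5G60620) on chromosome 5 from 24367142 to 24369790, all on the plus strand.

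Transcripts of both targeted genes were scarce in the libraries labelled pub2pub4. For PUB2 the wild-type mean was 9.05 ± 1.44 CPM and the mutant mean 0.504 ± 0.108 CPM, and for PUB4 the means were 21 ± 2.36 and 3.22 ± 0.746 CPM (SD, n = 3 each). CPM are expected counts scaled to library size, here with TMM factors that adjust for library composition. Library totals ran from 20506882 to 20732799 expected counts. Leaf identity was visible in the mesophyll markers, with all 5 tested and sums of 23600 to 24800 CPM in wild type and 21100 to 24800 in pub2pub4. The sums rest mainly on RBCS1A and RCA. The other 3 markers were lower in pub2pub4 without overlap but not called, LHCB1.1 with means of 962 and 536 CPM (adjusted p 0.166), LHCB2.1 with 691 and 508 (0.2) and PSAD1 with 1900 and 1660 (0.139). The 4 seed markers summed to at most 0.196 CPM, with the oleosin genes OLE1 and OLE2 at 0 in every library. Summed guard cell markers were at 107 to 123 CPM in wild type and 86 to 128 in pub2pub4, trichome markers at 19.4 to 24.2 and 15.5 to 18.3, and phloem markers at 448 to 520 and 455 to 474. Lower without overlap but not called were KAT1 of guard cells (means 27.4 and 20 CPM, adjusted p 0.0512) and GL2 (18 and 13.5, 0.0964) and TRY (1.53 and 0.735, 0.166) of trichomes. SEOR1 of phloem was higher without overlap (39.5 and 54, 0.103), and the other markers of these cell types overlapped. Of all tested genes 12.7% were lower and 13.4% higher without overlap.

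In wild-type leaves the cutin enzymes GPAT4 and GPAT8 and the membrane lipid enzyme GPAT9 held most of the family's transcripts. Levels between genes were compared as CPM per kilobase of the deposited gene length. GPAT4 was highest at 47.7 ± 1.34 (SD, n = 3), followed by GPAT8 at 37.9 ± 0.811 and GPAT9 at 32.3 ± 0.772. GPAT3 was at 13.3 ± 1.62, GPAT6 at 5.48 ± 0.713, GPAT2 at 2.73 ± 0.293 and GPAT1 at 0.664 ± 0.0234. In wild type no 2 neighbours in this order had overlapping values. GPAT2 was a low transcript in wild type, with 19.7% of the 19019 tested genes at or below its level per length, against 86.3% for GPAT4.

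In pub2pub4 GPAT2 and GPAT6 changed places in the order. GPAT2 stood at 6.85 to 8.13 CPM per kilobase, above GPAT6 at 3.45 to 4.47, whereas in wild type GPAT2 at 2.48 to 3.05 stood below GPAT6 at 4.68 to 6.03. GPAT8 at 26.4 to 37 (mean 31.9) came to overlap GPAT9 at 29.7 to 32.7 (mean 31.1). GPAT4 stayed first at 44.7 to 45, and GPAT3, at 11.1 to 15.4, stayed between GPAT9 and GPAT6. The remaining Arabidopsis enzyme of this activity, the plastid-located ATS1, was at 30.4 ± 1.19 CPM per kilobase in wild type and 31.1 ± 0.701 in pub2pub4 (SD, n = 3 each).

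**Figure D2:**
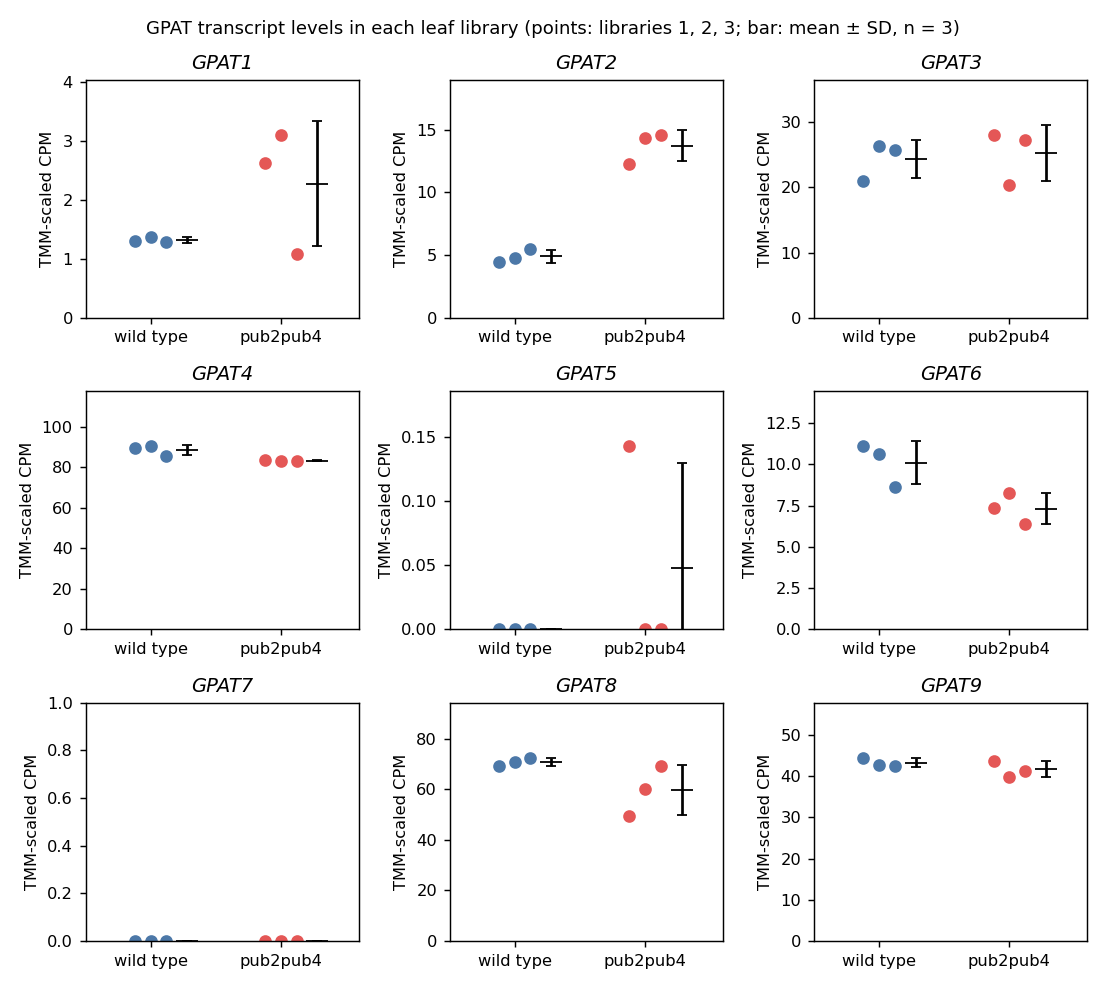
TMM-scaled CPM (y axis, starting at 0, a separate scale per gene) of each GPAT gene in the 3 wild-type and 3 pub2pub4 libraries (points, in replicate order), with the mean and SD as a bar. GPAT2 lies at 4.43 to 5.46 CPM in wild type and 12.3 to 14.6 in pub2pub4, while GPAT3 overlaps between the groups and GPAT7 is at 0 throughout.

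GPAT2, the member by which the family was picked, was higher in every pub2pub4 library than in every wild-type library. Its expected counts were 92, 97 and 114 in wild type 1 to 3 and 257, 290 and 297 in pub2pub4 1 to 3. In CPM these were 4.43, 4.77 and 5.46 in wild type and 12.3, 14.3 and 14.6 in pub2pub4. The means were 4.89 ± 0.525 and 13.7 ± 1.25 CPM (SD, n = 3 each), a ratio of 2.81 and a log2 fold change of 1.49 ± 0.12 (SE). The groups did not overlap, and the lowest mutant library was above the highest wild-type library. Across the edgeR fit 1 of the 7 members with enough counts was called at an adjusted p under 0.05, namely GPAT2, where 4.46% of all tested genes were called and 2.49% were called higher. Since this contrast chose the family, nothing is read from that count.

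GPAT3, whose coding sequence is closest to that of GPAT2, had overlapping groups. It was at 21, 26.3 and 25.8 CPM in wild type and at 28.1, 20.3 and 27.3 in pub2pub4. The lowest value of all was that of pub2pub4 2 and the highest that of pub2pub4 1. The log2 fold change was 0.05 ± 0.14 (SE), and it turned negative when wild type 1 (-0.05), pub2pub4 1 (-0.03) or pub2pub4 3 (-0.01) was left out. The ratio of GPAT2 to GPAT3 counts within a library, which does not depend on scaling, was 0.181 to 0.212 in wild type. In pub2pub4 it was 0.437 to 0.704. Against GPAT4 the GPAT2 ratio was 0.0495 to 0.0638 in wild type and 0.147 to 0.175 in pub2pub4.

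The promoters of this pair are shown because the paralogs are alike in coding sequence while only the values of GPAT2 separated the groups. They are the 300 bases before each gene start (TAIR10.1, RefSeq annotation), chr1:480350-480649 on the plus strand for GPAT2 and chr4:846815-847114 on the minus strand for GPAT3. Capitals mark ACGTG (the core of the abscisic acid response element), CCGAC (the core of the dehydration response element) and TTGAC (the core of the W-box bound by WRKY factors), searched on both strands.
GPAT2: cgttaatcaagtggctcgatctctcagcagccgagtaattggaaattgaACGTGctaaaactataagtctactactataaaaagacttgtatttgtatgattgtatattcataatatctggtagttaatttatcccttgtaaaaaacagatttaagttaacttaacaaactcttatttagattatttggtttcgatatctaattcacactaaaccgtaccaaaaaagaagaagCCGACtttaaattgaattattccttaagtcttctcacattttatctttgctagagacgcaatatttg
GPAT3: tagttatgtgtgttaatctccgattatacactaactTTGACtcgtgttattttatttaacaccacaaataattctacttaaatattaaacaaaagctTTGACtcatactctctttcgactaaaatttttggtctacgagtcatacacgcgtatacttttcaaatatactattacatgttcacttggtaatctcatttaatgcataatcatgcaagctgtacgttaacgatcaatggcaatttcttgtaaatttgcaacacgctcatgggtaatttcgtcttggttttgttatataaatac
GPAT2 held ACGTG once, beginning 251 bases before the start, and CCGAC once, beginning 67 bases before it, and did not hold TTGAC. GPAT3 held TTGAC beginning 264 and 203 bases before its start, and neither of the other cores. Among 27443 promoters of nuclear protein-coding genes of the same length, 25.6% held ACGTG, 13.9% held CCGAC and 50.4% held TTGAC. In the family ACGTG was found in 4 of 9 promoters (GPAT2, GPAT5, GPAT6 and GPAT7), CCGAC in 2 (GPAT2 and GPAT6) and TTGAC in 5. GNATATNC, the element bound by PHR1 of the phosphate starvation response, was found in GPAT2 alone within the family and in 6.5% of all promoters. The longer CACGTG, which contains ACGTG, was in 0 of the 9 and in 7.09% of all promoters. TATAAA, the TATA box, was in 7 of the 9 and in 52.9% of all promoters. These matches describe the letters in the window and were not tested for function.

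The 3 cutin enzymes had lower means in pub2pub4, with mutant-to-wild-type ratios of 0.94 for GPAT4, 0.724 for GPAT6 and 0.84 for GPAT8. GPAT4 was at 89.5, 90.4 and 85.7 CPM in wild type and at 83.4, 83 and 83.2 in pub2pub4, a log2 fold change of -0.09 ± 0.06 (SE). Its groups did not overlap, and the coefficient of variation was 2.81% in wild type and 0.271% in pub2pub4. The mutant value, at 1747, 1682 and 1696 counts, is less than counting error alone would usually give, and nothing is read from it. GPAT6, known for flower cutin, was at 11.1, 10.6 and 8.63 CPM in wild type and at 7.35, 8.24 and 6.37 in pub2pub4, a log2 fold change of -0.47 ± 0.14 (SE). Every mutant library was below every wild-type library, with wild type 3 nearest to the mutant. GPAT8, which acts redundantly with GPAT4 in leaf cutin, was at 69.4, 71 and 72.5 CPM in wild type and at 49.5, 60.2 and 69.2 in pub2pub4. The log2 fold change of GPAT8 was -0.25 ± 0.11 (SE), the value of pub2pub4 3 was close to wild type 1, and the change was -0.13 without pub2pub4 1 and -0.38 without pub2pub4 3. Values of the 2 groups did not overlap in 4 of the 7 members (GPAT2 higher, and GPAT4, GPAT6 and GPAT8 lower), against 26.2% of all tested genes, 13.4% higher and 12.7% lower, and the family was picked on this contrast.

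GPAT9 overlapped between the groups. It was at 44.5, 42.8 and 42.6 CPM in wild type and at 43.8, 39.9 and 41.4 in pub2pub4, a log2 fold change of -0.05 ± 0.07 (SE). GPAT1 was at 1.3, 1.38 and 1.29 CPM in wild type and at 2.63, 3.11 and 1.08 in pub2pub4. Pub2pub4 3, with 22 counts, was below all 3 wild-type libraries with 27 or 28 counts, while the other mutant libraries with 55 and 63 counts were above them. The wild-type counts lay closer together than counting error alone would usually leave them. The log2 fold change of GPAT1 was 0.78 ± 0.37 (SE), and it was 0.48 without pub2pub4 2 and 1.11 without pub2pub4 3. Markers of tapetum and anther summed to 0.246 to 1.73 CPM in wild type and 0.049 to 0.239 in pub2pub4. The highest sum was that of wild type 1, with A9 at 0.819 and CYP703A2 at 0.578 CPM. A9, MS1 and TDF1 were at 0 in every pub2pub4 library and also in wild type 2. Of the 5 markers, 0 had enough counts to be tested.

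The suberin-associated members were at or near 0. GPAT7 had 0 counts in all 6 libraries, and GPAT5 had 3 counts in pub2pub4 1 and 0 in the other 5. A count of 0 allows up to 3 counts per library, or 0.145 to 0.146 CPM, for counting error alone. No fold was computed for either gene, and both were left out of the fit by the filter on low counts, which the other 7 members passed.

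**Figure D3:**
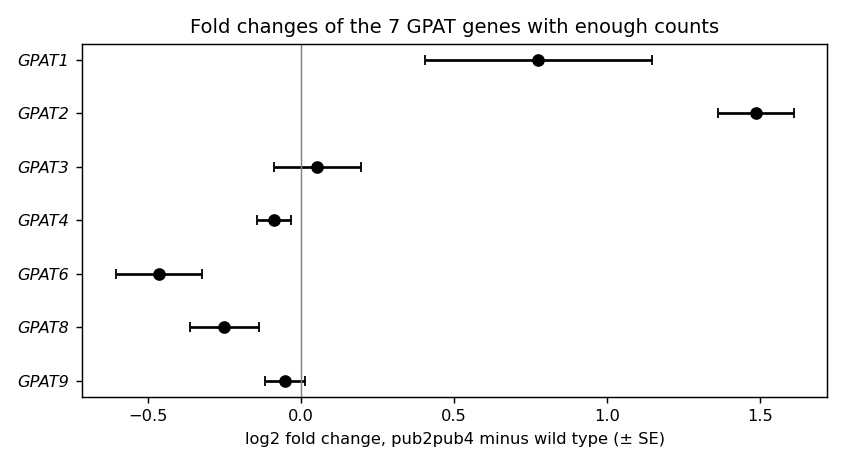
Log2 fold change from wild type to pub2pub4 (x axis, points with SE) of the 7 GPAT genes with enough counts, one per line. GPAT2 stands at 1.49 and GPAT1 at 0.78 with a wide error of 0.37, while the other 5 lie between -0.47 and 0.05.

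The summed level of the family moved little. It was 139, 142 and 139 CPM per kilobase in wild type 1 to 3 and 132, 132 and 140 in pub2pub4 1 to 3, so the groups overlapped. GPAT2 made up 1.95 ± 0.214% of the family sum in wild type and 5.7 ± 0.438% in pub2pub4 (SD, n = 3 each). GPAT4 made up 34.1 ± 0.777% and 33.4 ± 1.1%, and GPAT8 made up 27.1 ± 0.635% and 23.7 ± 3.26%. The share of GPAT9 was 23 ± 0.681% in wild type and 23.2 ± 1.44% in pub2pub4. These are levels in whole leaves, in which fewer cells of a type and less RNA per cell cannot be told apart.

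**Figure D4:**
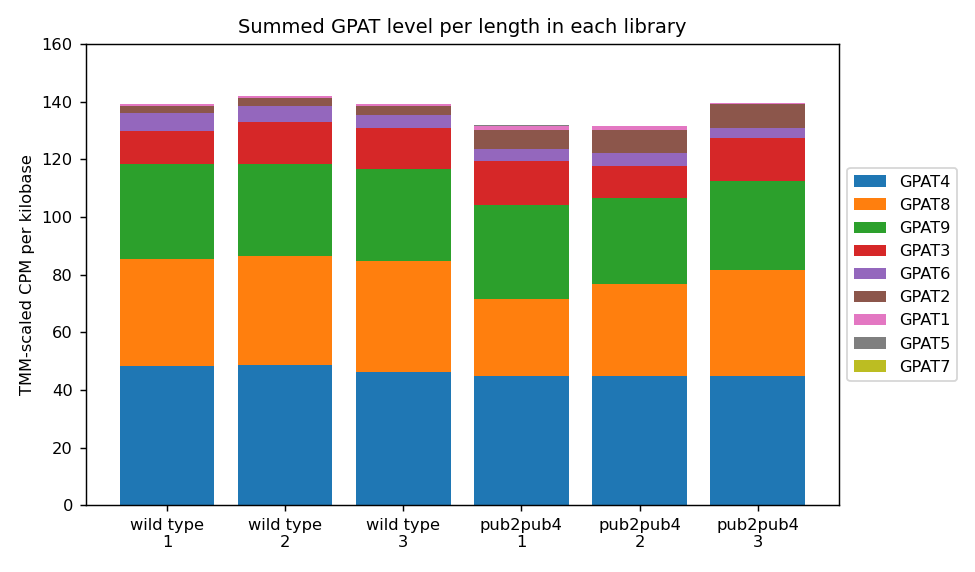
Stacked bars of TMM-scaled CPM per kilobase (y axis, starting at 0) of the GPAT genes in each of the 6 libraries. The bar heights lie between 132 and 142, and the GPAT2 segment is wider in the pub2pub4 libraries (5.21% to 6.06% of the sum) than in wild type (1.78% to 2.19%).

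Genes with the pattern most like that of GPAT2 were sought by the root-mean-square distance of log2 CPM over the 6 libraries, each gene centred on its own mean, among 14774 genes at 4.65 CPM or more on average. The nearest was AT1G51440, annotated as an alpha/beta-hydrolase superfamily protein, at a distance of 0.127, with 7.19 to 7.81 CPM in wild type and 18 to 22.3 in pub2pub4. COR47, a dehydrin gene, followed at 0.156, with 109 to 159 and 315 to 332 CPM. NFYA2, a nuclear factor Y subunit gene, was at 0.159, with 5.11 to 5.7 and 12.4 to 16.5 CPM. AT3G56080, annotated as a methyltransferase superfamily protein, and UGT90A1, a UDP-glycosyltransferase gene, were at 0.177 and 0.211. These 5 genes had log2 fold changes of 1.29 to 1.40. The pattern of GPAT2 is mainly the group difference by which the family was picked, so a small distance mostly reflects a like fold change. With 92 to 297 counts per library for GPAT2, counting error is a large part of these distances, and nothing is read from their order. For GPAT4, the member with the highest level per length, the nearest of 9509 genes with at least 16.6 CPM were BZIP25 (0.0115), SE (0.0155), AKHSDH2 (0.0163), EMF2 (0.0164) and RPS12A (0.0175). Those 5 genes had log2 fold changes of -0.08 to -0.11. Their distances to GPAT4 are smaller than counting error, so nothing is read from their order.

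Neighbouring genes of GPAT2 on chromosome 1 did not pass the edgeR test. AT1G02380, 1537 bases to the left, had a log2 fold change of 0.42 (adjusted p 0.523), and GA2OX6, a gibberellin oxidase gene 3426 bases to the right, one of 0.52 (adjusted p 0.306). GPAT4 lies beside a gene for a CYP86A fatty acid hydroxylase, and another lies near GPAT8. These enzymes make the omega-hydroxy acids of cutin. CYP86A4 lies 355 bases from GPAT4 and was at 11.9, 8.32 and 10.7 CPM in wild type and 10.5, 4.54 and 4.61 in pub2pub4 (log2 -0.65 ± 0.36 SE, adjusted p 0.381). Without pub2pub4 1, the library at 10.5 CPM, the change of CYP86A4 was -1.17 and it was called (adjusted p 0.0218). Wild type 1, the highest library of its group, was kept there. No other alternative called CYP86A4. Its adjusted p was 0.467 to 0.623 when any other library was dropped, 0.253 by DESeq2 and 0.118 with a replicate block. CYP86A2 lies 10929 bases from GPAT8 with 2 protein-coding genes between, and was at 264 to 310 CPM in wild type and 282 to 299 in pub2pub4 (log2 -0.02 ± 0.08 SE, adjusted p 0.933).

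Among the other genes of cutin synthesis, export and control, 2 of 20 tested fell by edgeR (1.97% of all tested genes were called lower), and 18 did not pass the test. None rose, with 0 higher at an unadjusted p under 0.05 and 0 by DESeq2 or limma-voom. LACS1, a long-chain acyl-CoA synthetase of wax and cutin synthesis, was at 89, 85.3 and 88 CPM in wild type and 66, 55.7 and 62.5 in pub2pub4, a fall of log2 -0.51 ± 0.08 (SE, adjusted p 0.015). CUS1, a cutin synthase-like lipase gene listed as LTL1 in the table, was at 64.3, 73.8 and 67.4 CPM and at 53.9, 51.6 and 57.5 (log2 -0.33 ± 0.08 SE, adjusted p 0.0484). Both genes had no overlap between the groups. The median log2 fold change of the 20 genes was -0.23, against 0.01 over all tested genes, and 17 of the 20 values were negative. These 20 values need not be independent. DCR, CUS2 and CYP86A4, picked with their values in view, were each highest in library 1 of both groups. The LACS1 call was lost without wild type 1 (adjusted p 0.0627), wild type 2 (0.0677) or pub2pub4 2 (0.0546). CUS1 kept its call without pub2pub4 3 (0.0356) and lost it without each of the other 5 libraries (0.0858 to 0.182). Epidermis markers, all 5 of them tested, summed to 714 to 755 CPM in wild type and 679 to 762 in pub2pub4, with none at 0. ATML1 was lower in pub2pub4 without overlap, as were 12.7% of all tested genes, but not called (means 85.7 and 75 CPM, adjusted p 0.167). PDF1, PDF2, FDH and CER5 overlapped between the groups. The part of the epidermis in the cutin values was not tested.

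Among suberin genes 6 of 19 had enough counts to be tested, of which 2 rose (2.49% of all tested genes were called higher) and 4 did not pass the test. KCS2, an elongase for very long chains listed as KCS17 in the table, was at 3.37, 2.12 and 3.36 CPM in wild type and 10.6, 8.04 and 7.55 in pub2pub4, a log2 fold change of 1.56 ± 0.21 (SE, adjusted p 0.0124). FAR1, a reductase that makes primary alcohols, was at 8.82, 5.81 and 8.05 CPM and at 16.8, 11.9 and 13.9 (log2 0.91 ± 0.18 SE, adjusted p 0.0353). No mutant library of either gene was as low as a wild-type library. DESeq2 called the same 2 genes higher and KCS20, an elongase that acts redundantly with KCS2, lower (adjusted p 0.0426). Of all 19019 tested genes DESeq2 called 752 higher and 708 lower. KCS20, chosen for mention with its values in view, had 147, 181 and 149 CPM in wild type and 124, 130 and 131 CPM in pub2pub4 (log2 -0.31 ± 0.09 SE, edgeR adjusted p 0.0979). The median of the 6 genes was 0.02, against 0.01 over all tested genes. KCS2 lost its call without pub2pub4 2 (adjusted p 0.0546), and FAR1 lost its call without each of the 6 libraries in turn (0.0552 to 0.109). Markers of root endodermis summed to 4.38 to 6.6 CPM in wild type and 4.07 to 5.16 in pub2pub4. The sums rest mainly on ESB1, with means of 4.94 and 4.39 CPM, which alone of the 4 was tested. MYB36 was at 0 in every library and CASP2 at 0 in wild type. The part of the endodermis in the suberin values was not tested.

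For the steps before and after the acyltransferases, 0 genes were called by edgeR, DESeq2 or limma-voom in the 3 lists for lipid assembly, glycerol-3-phosphate supply and acyl-CoA synthetases. Of 15 tested glycerolipid assembly genes, 3 were higher and 2 lower at an unadjusted p under 0.05, which 10.3% of all tested genes passed as higher and 9.41% as lower. Their median log2 fold change was -0.02. The lipid phosphatase gene LPPgamma had a change of 0.31 ± 0.09 (SE, adjusted p 0.0929) and ROD1, for a phosphatidylcholine headgroup exchange enzyme, one of -0.26 ± 0.08 (SE, adjusted p 0.107). ATS1 had a change of 0.03 ± 0.06 (SE, adjusted p 0.828). Of 6 genes for supply and use of glycerol-3-phosphate, 3 were lower at an unadjusted p under 0.05 (9.41% of all tested genes), and the median was -0.28. The glycerol-3-phosphate dehydrogenase genes GPDHP (-0.33 ± 0.09 SE, adjusted p 0.0842) and GPDHC2 (-0.44 ± 0.14 SE, adjusted p 0.125) had the smallest p-values, and without pub2pub4 3 a single gene of this list, GPDHP, was called. Of 6 acyl-CoA synthetases, which activate the acyl donors, LACS8 was higher at an unadjusted p under 0.05, as were 10.3% of all tested genes (0.33 ± 0.09 SE, adjusted p 0.0863), and LACS3 had a change of -0.16 ± 0.09 (SE, adjusted p 0.35). LACS8 was called without pub2pub4 3 (adjusted p 0.0494), a setting in which 1210 of 19226 genes were called.

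**Figure D5:**
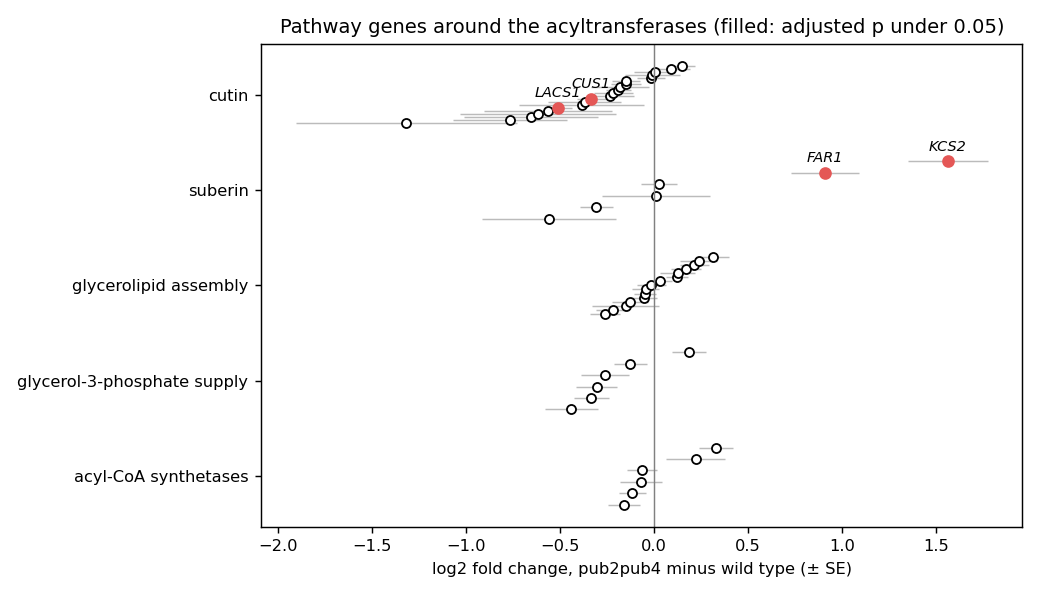
Log2 fold change from wild type to pub2pub4 (x axis, points with SE) of the tested genes in 5 pathway lists (y axis), filled where the adjusted p was under 0.05. KCS2 (1.56) and FAR1 (0.91) are the filled points to the right and LACS1 (-0.51) and CUS1 (-0.33) those to the left, while 0 points are filled in the other 3 lists.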

How the data were processed

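Leaf messenger RNA libraries were sequenced on an Illumina HiSeq instrument. The authors deposited expected counts, which are read estimates per gene and partly fractional (95.1% of values were whole), with a length per gene. The submitters' processing notes name TopHat2 2.1.0, RSEM 2.1.30 and TAIR10, with no role stated. Strand setting and annotation release: not given in the sources used here. Columns were matched to samples by the labels' descriptions, and groups were taken from titles.

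Rounded expected counts were tested with edgeR 4.0.16 (R 4.3.3), using filterByExpr (minimum count 10, minimum total 15), TMM scaling and the robust quasi-likelihood test of genotype alone, two-sided. P-values were adjusted by Benjamini-Hochberg across all 19019 genes that passed the filter, and called means an adjusted p under 0.05. A standard error is the fold change divided by the square root of F. Levels are CPM as mean ± SD. The test was checked on simulated counts. Alternatives were a replicate block, each library left out, other scalings and filters, no rounding, DESeq2 1.42.0 and limma-voom (limma 3.58.1).

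Members, pathway lists and marker lists were chosen with earlier results of these data known. The text names all members, the targeted genes, called members of each list (up to 6, otherwise the 2 with the smallest p), ATS1 and the 5 genes most alike. CYP86A2, CYP86A4 and other neighbours were named for their position. Sequences and positions are from RefSeq on TAIR10.1, since the deposited table has no coordinates. Coding sequences, the longest per gene, were aligned with MAFFT 7.526.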

Additional observations from a re-analysis of the deposited data

How the results depend on the processing

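The fold changes of GPAT1, GPAT2, GPAT4, GPAT6, GPAT8 and GPAT9 kept their sign in every alternative in which the gene was kept. GPAT2 ranged from 1.42 to 1.57 on the log2 scale with each library left out and from 1.47 to 1.49 under the other 8 alternatives. GPAT1 was dropped by the stricter filter (at least 5 CPM in 3 libraries). The larger of the 2 shifts that another scaling gave the median of all genes was -0.02 on the log2 scale (library totals alone). The number of genes called, 848, was 86 to 1210 with a library left out (wild type 1 gave 132, wild type 2 gave 86, pub2pub4 1 gave 540 and pub2pub4 2 gave 91) and 1460 by DESeq2. Library totals alone gave 426 higher and 443 lower, against 474 and 374. With a library left out the cutin list had 0 to 2 calls, the suberin list 0 to 1, the glycerol-3-phosphate supply list 0 to 1 and the acyl-CoA synthetases 0 to 1. Limma-voom called 1 of 20 tested cutin genes, and 726 of all 19019. The cause was not tested.

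The replicate numbers were not taken as pairs in the main test. Deviations of same-numbered libraries correlated at 0.134, 0.058 and 0.156 over genes, and those of other pairs at -0.154 to 0.048. Each library thus correlated best with its own number, and whether same-numbered libraries shared a batch was not tested. With the replicate block 1066 of 19019 tested genes were called, 489 higher and 577 lower. Of 20 tested cutin genes, 4 were then called lower (LACS1, DCR, CUS2 and ABCG13, the last 3 named after their values were seen). CUS1 was not called with the block (adjusted p 0.0638). In the same fit 2 of 6 suberin genes and 1 of 6 acyl-CoA synthetase genes (LACS8, adjusted p 0.0463) were called higher. A count of 0 for GPAT5 or GPAT7 allows up to 0.145 to 0.146 CPM in a library.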
